A study of Mus musculus with 39 samples.

Results

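The cytosolic ribosomal protein genes encode the proteins of the small and large subunits of the ribosome that translates nuclear-encoded mRNA. They were taken by symbol from a table of TPM values (a share of transcripts corrected for gene length and scaled to the same total in each library). A row was kept when its symbol had the form of a ribosomal protein gene (Rpl or Rps with a number, or Rpsa, Rplp0, Rplp1 or Rplp2) and its mean over the 39 libraries was at least 1 TPM. Of 89 such symbols among 53465 rows, 86 were kept. They were 43 genes of the large subunit, 31 of the small subunit, 3 of the acidic stalk and 9 paralogs, rows named after another member. That mean level chose the members, so it is given here as a description. The 3 kept members with the lowest means were Rpl3l at 1.41, Rpl32l at 1.55 and Rps3a3 at 2.80 TPM, and the 3 symbols left out were Rpl6l at 0.557, Rpl39l at 0.469 and Rpl10l, which was listed at 0 throughout. Rpl3l was kept through 1 group alone, since its mean over the 36 libraries outside the granulocytic marrow sort was 0.86 TPM.

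The sorted libraries were of cells taken as myeloid-derived suppressor cells (MDSC), and the libraries of all cells were unsorted. MDSC are myeloid cells of immature character that dampen T cell responses, with a granulocytic (G) and a monocytic (M) form. Marrow came from C57BL/6 pups labelled newborn to postnatal day 7, as all cells, G and M. Spleen came from BALB/c mice labelled as immune-deficient and from APCmin/+ mice, which carry a mutant Apc allele and form intestinal tumours, each as G, M and combined G+M sorts. Intestine of APCmin/+ mice was measured as all cells, G, M and G+M. Each of the 13 groups had 3 libraries, and the labels give neither the strain background or ages of the APCmin/+ mice, nor the immune defect of the BALB/c mice, nor the surface markers of the sorts. BALB/c origin, immune deficiency and the Apc mutation therefore cannot be told apart between the spleens, and neither can marrow, young age and C57BL/6 origin.

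The labelled cell types were checked against marker lists. The 12 granulocyte markers summed to between 126300 and 148000 TPM in both marrow sorts, M included, and to between 36.7 and 778 TPM in the intestinal sorts, where 12 epithelial markers summed to between 11860 and 16970 TPM. The intestinal sorts were thus close to all intestinal cells in these markers (epithelial sum 13720 to 17060 TPM). In the APCmin/+ spleen G sort the granulocyte sum ran from 26310 in library 1 to 61900 in library 3 and 140100 in library 2. B and plasma cell markers summed to at least 20920 TPM in every splenic library. The 10 monocyte markers summed to 4378 to 4506 TPM in marrow M and 661 to 688 in marrow G. In spleen they were 3173 to 4309 TPM in M and 975 to 1130 in G (BALB/c), and 1131 to 3159 against 673 to 1003 (APCmin/+). In intestine they were 607 to 759.5 TPM in M and 155 to 217 in G.

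Each ribosome holds 1 copy of nearly every ribosomal protein, and mammalian cells make these proteins from mRNAs that are mostly transcribed at similar high levels. The mRNAs begin with a run of pyrimidines, the 5′ terminal oligopyrimidine (TOP) motif, through which growth signals acting by mTOR set their translation. Loss of 1 copy of several of these genes causes Diamond-Blackfan anaemia, in which red cell formation fails, and a number of them have paralogs with tissue-restricted use or many processed pseudogenes. Small and large subunits are assembled in the nucleolus, and the acidic stalk of the large subunit (Rplp0, Rplp1 and Rplp2) recruits elongation factors.

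Runs of pyrimidines around the start sites were counted, a feature that the rule did not use and that some of the members held. RefSeq promoters (GRCm38.p6) were found for 62 of the 86 members. A run of at least 8 letters that are all C or T, read on the gene's strand and overlapping the 10 bases on either side of a listed start, was present in 30 of these 62 (48.4%) and in 4259 of 27025 genes with a promoter in the same table (15.8%). The 30 bases around the start (15 before it and 15 from it) are printed for the 5 of the 6 members of highest mean TPM that were found in the table, and for the paralog Rps27l. Rps24 and Rps27l had 2 listed starts each, and the start with the longest run is shown. Capitals mark the bases of the longest C or T run that lie in the window. The runs of Rpl13a and Rps12 go on past its end, to 14 and 11 letters. They lie at chr7:45128731-45128760 (minus strand), chr3:90213634-90213663 (minus), chr10:23787195-23787224 (minus), chr10:128549154-128549183 (minus), chr14:24490663-24490692 (plus) and chr9:66946071-66946100 (plus), in the order shown.
Rpl13a: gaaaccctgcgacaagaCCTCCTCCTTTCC
Rps27: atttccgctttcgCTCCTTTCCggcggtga
Rps12: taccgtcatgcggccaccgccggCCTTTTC
Rpl41: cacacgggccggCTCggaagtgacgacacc
Rps24: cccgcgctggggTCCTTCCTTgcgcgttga
Rps27l: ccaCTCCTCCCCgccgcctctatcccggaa
Rpl13a, Rps27, Rps12, Rps24 and Rps27l held such a run, and Rpl41 had none of 8 letters in this window, where its longest was 3. A run counted in this way need not begin the mRNA, so it is not the TOP motif as such. That of Rps27l lies wholly before the start shown, and those of Rpl13a and Rps12 begin after theirs.

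A second set of sequences bears on how far a row can be told from its near copies. Most members have processed pseudogenes, intronless copies of an mRNA put back into the genome. By alignment to GENCODE M21 transcripts (at least 75 bases at 95% identity or more, over at least 50% of the row's transcript), 620 rows were near copies of 78 members. The 4 pairs printed are among those on which the BALB/c libraries turn. Each line is 60 bases of the coding sequence, 5′ to 3′, with the differing bases in capitals and positions counted from 1 at the A of the start codon.
Rpl26: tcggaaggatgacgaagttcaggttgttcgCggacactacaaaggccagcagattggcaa
Gm15772: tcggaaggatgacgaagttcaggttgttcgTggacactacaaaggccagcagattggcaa
Rps18: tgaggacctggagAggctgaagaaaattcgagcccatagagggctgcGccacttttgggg
Gm10260: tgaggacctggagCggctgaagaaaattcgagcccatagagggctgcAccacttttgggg
Rpl30: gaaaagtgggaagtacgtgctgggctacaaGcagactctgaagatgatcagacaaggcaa
Rpl30-ps9: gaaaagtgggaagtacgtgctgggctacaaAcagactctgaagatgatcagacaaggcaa
Rps3a1: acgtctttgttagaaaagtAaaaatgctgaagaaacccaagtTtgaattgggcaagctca
Rps3a2: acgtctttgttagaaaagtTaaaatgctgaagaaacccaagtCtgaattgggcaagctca
Rpl26 (chromosome 11, 68901583 to 68906989, mm10) and the processed pseudogene Gm15772 (chromosome 5, 3236431 to 3236868) differed at 2 of 435 coding bases, C177T and T288C, of which bases 147 to 206 are shown. Rps18 (chromosome 17, 33951999 to 33956001) and Gm10260 (chromosome 13, 97760072 to 97760632) differed at 4 of 456, with A337C and G371A in the stretch shown (bases 324 to 383). Rpl30 (chromosome 15, 34440505 to 34443640) and Rpl30-ps9 (chromosome X, 105278637 to 105278981) differed at 2 of 342 aligned bases, and bases 66 to 125 show G96A. Rps3a1 (chromosome 3, 86137940 to 86142702) and Rps3a2 (chromosome 14, 88123017 to 88123808) differed at 4 of 792, with A645T and T668C among bases 626 to 685.

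The 77 members that are not paralogs were all abundant. Their mean TPM ran from 431 for Rpl39 to 1935 for Rplp1, with a median of 1052 and quartiles of 779 and 1268. The 6 highest were Rplp1 (1935 TPM), a stalk protein, Rpl13a (1932), a large-subunit protein also known for silencing inflammatory mRNAs, Rps27 (1930), Rps12 (1890), Rpl41 (1802), which encodes the shortest ribosomal protein, and Rps24 (1766). By contrast 7 members had a mean under 100 TPM, and all of these were paralogs.

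Summed over the 86 members, all cells of newborn marrow held the largest share of transcripts, and the sorted marrow cells less than 10%. The share was 14.9, 16.7 and 15.9% of TPM in the 3 libraries of all marrow cells, against 6.82, 7.73 and 6.35% in marrow G and 7.59, 9.03 and 7.80% in marrow M. In the spleens it was 6.84, 6.95 and 6.74% in BALB/c G and 9.17, 9.92 and 10.2% in BALB/c M, and 9.75, 5.88 and 7.42% in APCmin/+ G and 10.7, 9.74 and 9.43% in APCmin/+ M. The combined splenic sorts lay at 8.17, 8.34 and 7.29% (BALB/c) and 8.77, 7.53 and 9.47% (APCmin/+). In intestine it was 5.52, 7.12 and 7.60% in G, 4.55, 5.70 and 6.88% in M, 6.73, 6.91 and 6.71% in G+M and 7.11, 7.63 and 7.25% in all cells. All marrow cells thus lay apart from every other library, G and M did not overlap in BALB/c spleen, and they overlapped in marrow, APCmin/+ spleen and intestine. In bulk samples, fewer cells of a type and less RNA per cell cannot be told apart. No test is given for the summed share. Near copies that are not members are left out of it. Without them the mean share in splenic M was 9.77% in BALB/c and 9.95% in APCmin/+ mice. With them added it was 11.04 and 10.38%. In the same order, the means with near copies were 7.71 and 8.01% in G and 8.93 and 8.97% in G+M.

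**Figure D1:**
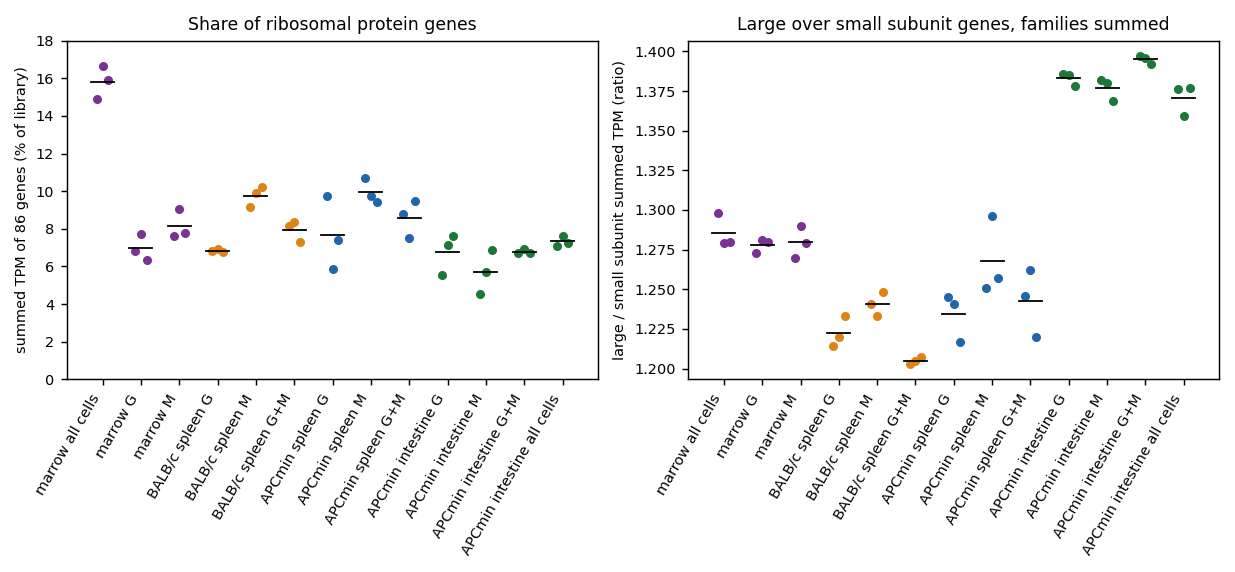
Left, summed TPM of the 86 ribosomal protein genes as a percentage of each library, and right, the ratio of large (with stalk) to small subunit genes after near-identical rows were added to their gene. Points are the 3 libraries of each group and bars their mean. All marrow cells stand at 14.9 to 16.7%, and the 12 intestinal libraries have the highest ratios, 1.36 to 1.40.

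The balance of the subunits set the intestinal libraries apart. The ratio of summed large-subunit and stalk TPM to small-subunit TPM, with near copies added to each gene, was 1.36 to 1.40 in the 12 intestinal libraries, 1.27 to 1.30 in the 9 of marrow and 1.20 to 1.30 in the 18 of spleen. The intestinal libraries did not overlap with the others. Group means were 1.395 ± 0.00258 (SD, n = 3) in intestinal G+M, 1.243 ± 0.0214 in APCmin/+ splenic G+M and 1.205 ± 0.00213 in BALB/c splenic G+M.

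Compared with all marrow cells, almost every ribosomal protein gene was lower in the sorted marrow cells. In limma on log2(TPM + 1) over all genes, called at an adjusted p under 0.05, 83 of 86 members were lower and 1 higher in G, and 82 were lower and 0 higher in M. The background was 28.0% of 18466 genes called lower and 22.7% higher for G, and 30.7% lower and 19.9% higher for M. The members' median log2 difference was -1.15 in G and -0.92 in M, against -0.03 and -0.10 over all genes.

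Rplp1 and Rplp2 of the stalk were among the 6 members that fell most in each sort, and Rplp0 was not. Rplp1 stood at 4035, 4529 and 4704 TPM in all marrow cells, 1254, 1567 and 1144 in G and 1445, 1942 and 1432 in M. Its log2 difference was -1.75 ± 0.17 (SE, adjusted p = 9.15e-10) in G and -1.47 ± 0.17 (adjusted p = 2.68e-08) in M. Rplp2 fell by 1.55 and 1.32, and Rplp0, which anchors the stalk to the ribosomal RNA, by 1.27 and 1.01 on the log2 scale. Rpl14, of the large subunit, had the lowest value in G: 1642, 2090 and 2043 TPM in all cells became 532, 665 and 490 (log2 difference -1.78 ± 0.16, adjusted p = 4.85e-10). Sorted and unsorted libraries did not overlap for either gene. The same held for 85 of the 86 members in G and 83 in M, and the share of all genes without overlap was not counted.

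Of the 9 Diamond-Blackfan genes examined (Rps19, Rps26, Rpl5, Rpl11 and Rpl35a among them), 9 fell in both sorts. So did 83 and 82 of the 86 members in G and M, and 28.0 and 30.7% of all genes. The median log2 differences of the 9 genes were -1.06 in G and -0.83 in M, against -1.15 and -0.92 for all members. Rps26 stood at 1474, 1801 and 1869 TPM in all cells and 597, 713 and 593 in G (log2 difference -1.43 ± 0.16), while Rps19, the gene most often mutated in that disease, had 2364, 2449 and 2213 TPM against 1209, 1340 and 1124 (-0.94 ± 0.16). Rpl3l, Rps4l and Rpl32l were the members not called lower in G. Rpl3l, kept through this sort, was the 1 member higher, and Rps4l at 31.5, 30.3 and 29.8 TPM in G against 36.3, 39.6 and 42.8 was not called.

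Other parts of the protein synthesis machinery were lower too. Of 18 other TOP mRNA genes 18 were lower in G and 16 in M. For genes of ribosome biogenesis the counts were 44 and 39 of 46, for mitochondrial ribosomal protein genes 74 and 69 of 78, and for initiation factors 21 and 18 of 24. Their median log2 differences in G were -0.78, -0.81, -0.87 and -0.76. Erythroid markers moved with these groups: 10 of 10 were lower in either sort, and their sum was 91800, 56360 and 102600 TPM in all marrow cells, 2025 to 2933 in G and 771 to 1218 in M. The 15 cell cycle genes summed to 4478 to 4754 TPM in all cells, 1658 to 2109 in G and 2572 to 2902 in M. Their part in the result was not tested.

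The G and M sorts were compared next. In BALB/c spleen most ribosomal protein genes were lower in G than in M, and in APCmin/+ spleen and marrow the count of calls depended on the fit. The counts that follow are from the fit of all 39 libraries without a replicate block. In BALB/c spleen 63 members were lower in G and 1 higher (background 13.3% of genes lower and 4.73% higher), with a median log2 difference of -0.49 against -0.05 over all genes. In APCmin/+ spleen 46 were lower and 1 higher (background 16.2% and 4.62%), with a median of -0.41 against -0.08. With the replicate block, for APCmin/+ spleen 0 members and 0 of all genes were called, and for BALB/c spleen 60 members were lower (11.7% of all genes). Of the genes lower in G without the block, 40 were shared, which is 63.5% of the BALB/c and 87.0% of the APCmin/+ list. The difference of the contrast between the spleens was called by limma for 0 members (background 1.44% called in either direction). By limma 1 member had an unadjusted p under 0.05, with no share of all genes counted at that threshold.

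In BALB/c spleen, Rpl10, a late-joining protein of the large subunit at the subunit interface, stood at 1169, 1180 and 1180 TPM in G and 1981, 2009 and 2414 in M. It fell by 0.85 ± 0.14 on the log2 scale (adjusted p = 3.56e-05). Rplp0 had 626, 626 and 616 against 1034, 1059 and 1100 (-0.77 ± 0.14), and Rps27l, a paralog of Rps27 known as a p53 target, 53.5, 53.8 and 55.5 against 89.3, 86.3 and 102.8 (-0.76 ± 0.14). None of these 3 overlapped between G and M. The same held for 82 of the 86 members, but the share of all genes without overlap was not counted. Leaving out BALB/c M library 3 lowered the count of calls to 34 (33 lower, 1 higher).

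In APCmin/+ spleen the same contrast varied with the library. Rps27l stood at 80.5, 63.5 and 54.4 TPM in G and 106, 161 and 106 in M (-0.89 ± 0.14, adjusted p = 9.17e-05), and Rpl7a fell by 0.59 ± 0.13 (adjusted p = 0.00272), both without overlap. Of the 86 members 23 did not overlap, again without a count over all genes. Rps2, a protein near the mRNA entry, had 1212, 720 and 843 TPM in G and 1404, 1615 and 1087 in M (-0.58 ± 0.17, adjusted p = 0.0127), and these overlapped.

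The APCmin/+ G libraries were ordered in the summed share as 9.75, 5.88 and 7.42% and in granulocyte markers as 26310, 140100 and 61900 TPM. Whether this bears on the contrast was not tested. Without G library 1 the count was 80 (79 lower), without G library 2 it was 5, without G library 3 it was 9, and without M libraries 1 and 2 it was 14 and 21. With these 2 groups fitted alone, as with the block, limma called no member and no other gene, and rescaling of libraries by their median ratio left 22 (21 lower, against 10.1% of all genes). In these spleens 16 of 18 other TOP genes, 20 of 24 initiation factors, 57 of 78 mitochondrial ribosomal protein genes and 15 of 15 cell cycle genes were lower in G as well, in the fit without the block (16.2% of all genes).

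In marrow, 2 members were lower and 1 higher in G than in M (background 12% of genes lower and 18.8% higher), although 83 of 86 log2 differences were negative, with a median of -0.22 against 0.04 over all genes. Rps29, of the small subunit, had 1214, 1276 and 1132 TPM in G and 1501, 1859 and 1684 in M (-0.47 ± 0.14, adjusted p = 0.0113), and Rpl35a fell by 0.41 ± 0.14 (adjusted p = 0.0264). The higher member was Rpl3l, the paralog of Rpl3 known from skeletal and heart muscle, which became a member only through its level in marrow G, so that this is a description. It stood at 8.62, 8.30 and 7.26 TPM in G and 2.27, 1.20 and 1.85 in M. Rpl3, its partner, had 704, 846 and 739 against 782, 962 and 928. The marrow count was 10 without G library 2 and 1 without G library 3 or M library 2. It was 24 after rescaling (23 lower, against 12.7% of all genes), 13 when these groups were fitted alone (12 lower, against 18.3%) and 50 with the replicate block (49 lower, against 19.4%), where the numbers did not pair the libraries by the rule used.

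In intestine no member was called between G and M by limma (background 6.41% of genes called in either direction). By limma 12 members had an unadjusted p under 0.05, a threshold at which the share of all genes was not counted. The median log2 difference was 0.25 against 0.14 over all genes, and 85 of 86 were positive. The replicate block gave 1 call (where 0.590% of all genes were higher), and leaving out G library 1 or M library 3 gave 6 and 5, all higher in G. The G libraries held 0.317 to 0.439% of TPM as stalk genes and the M libraries 0.262 to 0.4015%, which overlap. B and plasma cell markers summed to 2367 to 5867 TPM in intestinal G and 51650 to 73320 in M, and mitochondrially encoded genes took 13.1 to 20.0% against 8.19 to 14.2% of TPM. Their part was not tested.

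The G against M contrast itself differed between intestine and spleen of APCmin/+ mice. In the interaction 71 members were called higher (G relative to M higher in intestine) and 1 lower, with backgrounds of 19.9 and 5.45%, and a median of 0.65 against 0.23 over all genes. Rps27l (1.14 ± 0.20, adjusted p = 0.000303), Rps2 (0.96 ± 0.23), Rps4l (0.92 ± 0.31) and Rplp0 (0.87 ± 0.19) had the largest values, and Rpl3l was the 1 lower. The count was 14 after rescaling (13 higher, against 6.96% of all genes), 0 with these 4 groups fitted alone (against 1.07% higher) and 57 with the block that keeps the pairing of G and M within each tissue (56 higher, against 18%). It was 22 without intestinal M library 1, 25 without splenic G library 2, and 29, 38 and 42 without intestinal G library 3, intestinal G library 2 and splenic M library 1.

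**Figure D2:**
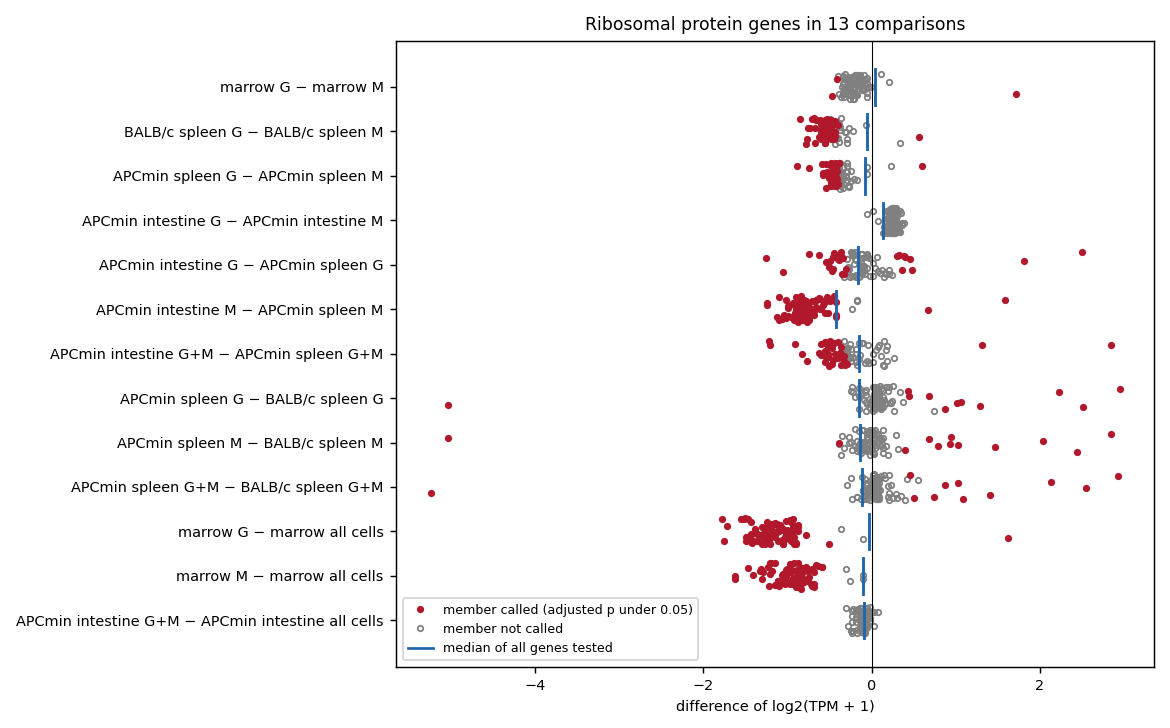
Difference of log2(TPM + 1) for each of the 86 members in the 13 comparisons, with called members (adjusted p under 0.05) filled and the median of all 18466 genes as a blue line. The members lie together well below that line in the marrow sorts, and single paralogs and BALB/c rows lie far outside the cloud.

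Between intestine and spleen of APCmin/+ mice, the ribosomal protein genes were lower in intestine mainly in the M sort, where 81 members were lower and 2 higher (background 50.7 and 22.0%). The median log2 difference was -0.80, against -0.43 over all genes. In G+M, 40 were lower and 2 higher (background 38.4 and 30.0%), with a median of -0.31 against -0.15. In G, 21 were lower and 9 higher, both shares below the background of 40.2 and 29.8%, with a median of -0.14 against -0.16.

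Scaling matters in these comparisons. Rescaling by the median ratio over 6908 genes moved all differences up by 0.66 in M, 0.26 in G+M and 0.25 in G on the log2 scale. After it, 29 members were lower and 4 higher in M (31.4 and 35.3% of all genes), 21 lower and 14 higher in G+M (32.8 and 37.7%), and 9 lower and 24 higher in G (35.2 and 37.0%). These counts, as shares of the 86 members, were near or below those of all genes. The directions of Rps27, Rps9 and Rpl13a (lower) and of Rps27l and Rps4l (higher) did not depend on it: each was called in the same direction in all 3 sorts after rescaling.

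Rps27, a zinc-finger protein of the small subunit, was the member lowest in intestine. It stood at 902, 1197 and 1238 TPM in intestinal G against 2840, 1731 and 2462 in splenic G, at 818, 974 and 1235 against 2749, 1976 and 2448 in M, and at 1087, 1083 and 1103 against 2500, 2122 and 3117 in G+M. The log2 differences were -1.06, -1.25 and -1.22, each ± 0.16 (adjusted p = 6.62e-07, 3.63e-08 and 5.34e-08), with no overlap. Of the 86 members 8, 82 and 62 did not overlap in G, M and G+M, where the share of all genes without overlap was not counted. Its paralog Rps27l went the other way: 206, 252 and 239 TPM in intestinal G against 80.5, 63.5 and 54.4 in splenic G (1.81 ± 0.14, adjusted p = 1.86e-12). In M it had 177, 204 and 204 TPM against 106, 161 and 106 (0.67 ± 0.14), and in G+M 200, 182 and 205 against 85.3, 90.8 and 62.2 (1.31 ± 0.14). The pair thus moved in opposite directions in each of the 3 sorts, while Rps27 kept the higher level throughout.

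Rps4l, annotated as a transcribed processed pseudogene related to Rps4x (chromosome 6, 148354656 to 148355598, mm10), had the largest rise. It stood at 34.4, 31.0 and 38.4 TPM in intestinal G against 5.82, 6.30 and 3.97 in splenic G, a log2 difference of 2.50 ± 0.22 (adjusted p = 1.98e-11). In M it had 30.5, 27.4 and 33.4 TPM against 10.4, 7.70 and 10.6 (1.58 ± 0.22), and in G+M 39.5, 29.9 and 47.6 against 2.98, 3.65 and 7.95 (2.84 ± 0.22, adjusted p = 1.11e-12). Its level was also 29.8 to 42.8 TPM in the 9 marrow libraries and 2.43 to 5.59 in the 9 of BALB/c spleen, so that the 18 splenic libraries lay below the 21 others without overlap. Rps4x itself, the X-linked small-subunit gene, had 819, 1025 and 1119 TPM in intestinal G against 1436, 815 and 1054 (-0.13 ± 0.15, adjusted p = 0.441). It fell in M, at 640, 823 and 976 TPM against 1578, 1389 and 1371 (-0.85 ± 0.15, adjusted p = 7.42e-06), and was not called in G+M (-0.30 ± 0.15, adjusted p = 0.0702).

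Among the other members, Rps9 fell by 0.74 in G and 1.24 in M, Rpl13a by 0.63, 1.10 and 0.91 in G, M and G+M, and Rps15a by 1.12 and 0.83 in M and G+M on the log2 scale. Rpsa, the laminin-receptor protein of the small subunit, fell by 1.10 in M (739 to 1181 TPM in intestine, 1861 to 2113 in spleen). Rpl22l1, the paralog of Rpl22, had 161, 191 and 224 TPM in intestinal G against 183, 109 and 127 (0.48 ± 0.14, adjusted p = 0.00366), and Rps2 had 1039, 1291 and 1418 against 1212, 720 and 843 (0.46 ± 0.17, adjusted p = 0.0154). Both rose with overlapping libraries. Of the 9 Diamond-Blackfan genes, 9 fell in M and 6 in G+M, where 81 and 40 of the 86 members and 50.7 and 38.4% of all genes did. In G, Rps19 (-0.37 ± 0.16) and Rps24 (-0.45 ± 0.15) fell and Rps26 (0.38 ± 0.16) rose. After rescaling neither fall was called (-0.12 and -0.20), and in M the difference of Rps26 went from -0.42 to 0.23 and that of Rps2 from -0.50 to 0.15, neither called then. Rpl3l was listed at 0 in the 3 intestinal G+M libraries and stood at 1.48, 1.43 and 1.07 TPM in splenic G+M.

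Of 78 mitochondrial ribosomal protein genes, 67 were higher in intestinal G (2 lower, median 0.64), 51 in G+M (3 lower, median 0.38) and 13 in M (17 lower, median -0.09). All genes were called higher at 29.8, 30.0 and 22.0%, and the difference from the cytosolic genes was not tested. Genes of ribosome biogenesis were lower for 44 of 46 in M, 18 in G+M and 15 in G, with 1, 3 and 3 higher. The lower counts in G+M and G are near or below the shares of all genes, 38.4 and 40.2%. Leaving out intestinal G library 1 lowered the count of members in G to 18 (8 lower, 10 higher), and leaving out splenic G+M library 3 that in G+M to 26. The count in G was 5 with these groups fitted alone (3 lower, 2 higher). In that fit 34.7% of all genes were lower and 26.4% higher, so the members were called less often than all genes in either direction. Epithelial markers were at least 11860 TPM in the intestinal sorts and at most 95.6 TPM in the APCmin/+ splenic ones, and their part was not tested.

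Within intestine, no member was called between G+M and all cells by limma (background 5.13% of genes called in either direction). By limma 0 members had an unadjusted p under 0.05, with no share of all genes counted at that threshold. With the replicate block, 0 members and 0.00% of all genes were called in either direction. The median log2 difference was -0.11 against -0.09 over all genes, and 83 of 86 were negative. Of the members 52 did not overlap, with no count over all genes.

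**Figure D3:**
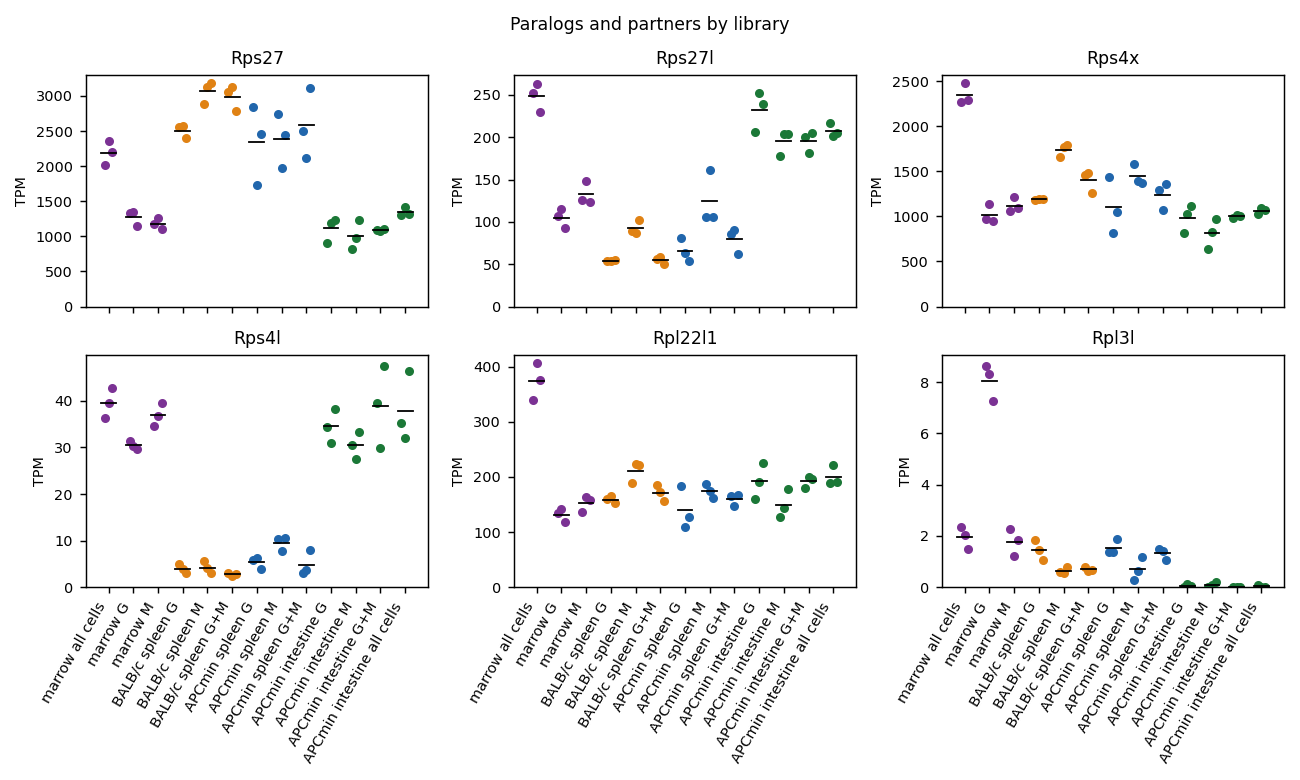
TPM of Rps27 with its paralog Rps27l, Rps4x with Rps4l, and the paralogs Rpl22l1 and Rpl3l in the 3 libraries of each group, with bars at the mean. Rps27 is high in spleen where Rps27l and Rps4l are low, and Rpl3l is above 7 TPM in the marrow G sort alone.

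The paralogs followed no common pattern. Rpl7l1, a Rpl7-like protein of the nucleolus, ranged from 20.1 TPM in an intestinal M library to 61.7 in one of all marrow cells, against 866 to 2818 for Rpl7 in these groups. Rpl22l1 ranged from 109 to 406 TPM and was highest in all marrow cells (340, 406 and 375), as was Rpl22 (847, 984 and 880). Rps12l1, a processed pseudogene whose reads may be shared with Rps12, stood at 36.2, 39.3 and 49.8 TPM in all marrow cells and at 7.02 to 25.01 in the other groups. Rpl32l and Rps3a3, also processed pseudogenes, did not exceed 3.51 and 5.32 TPM. Rps3a2 separated the BALB/c libraries, as described next.

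Between APCmin/+ and BALB/c spleen most members differed little, and a few rows differed many-fold. In G 10 members were higher in APCmin/+ and 1 lower (background 6.82 and 24.2%), in M 10 and 2 (background 11.3 and 27.3%), and in G+M 10 and 1 (background 7.30 and 20.0%). The median log2 differences were 0.07, -0.02 and 0.05, against -0.15, -0.14 and -0.12 over all genes. The members higher in each sort numbered 8: Rpl26, Rpl29, Rpl35a, Rps2, Rps18, Rpl30, Rplp0 and Rpl21.

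Rpl26, a large-subunit protein that also binds p53 mRNA, stood at 131, 137 and 122 TPM in BALB/c G and 1328, 798 and 972 in APCmin/+ G, a log2 difference of 2.95 ± 0.14 (adjusted p = 2.11e-16). Rpl29 had 110, 107 and 110 TPM against 810, 500 and 606 (2.51 ± 0.13), Rpl35a 154, 177 and 152 against 941, 610 and 738 (2.22 ± 0.14), and Rps2 359, 367 and 382 against 1212, 720 and 843 (1.29 ± 0.17). The values in M and G+M were 2.84 and 2.93 for Rpl26 and 2.44 and 2.55 for Rpl29. The member lower in APCmin/+ was Rps3a2, the near copy of Rps3a1 shown above, at 285, 286 and 277 TPM in BALB/c G and 12.4, 8.90 and 3.85 in APCmin/+ G (-5.04 ± 0.25, adjusted p = 3.33e-16). These 5 rows did not overlap between the spleens in any of the 3 sorts. Of the 86 members 9, 25 and 17 did not overlap in G, M and G+M, these 5 rows among them. The share of all genes without overlap was not counted here either.

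The near copies of these genes were high in the same BALB/c libraries. Gm15772, the copy of Rpl26, stood at 948, 955 and 989 TPM in BALB/c G, 1344, 1431 and 1578 in M and 1127, 1139 and 979 in G+M, and at no more than 28.6 TPM in the 30 libraries of the other groups. Gm10260, the copy of Rps18, had 473 to 794 TPM in the 9 BALB/c libraries and at most 5.05 elsewhere. Rpl30-ps9 had 596 to 943 against at most 49.65, and Gm8730, a copy of Rplp0, 414 to 777 against at most 13.2. Rpl35a-ps2 and Gm10243, copies of Rpl35a, were given the same value in each BALB/c library (185, 185 and 182 TPM in G).

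Added up, a gene and its copies differed far less between the spleens than the gene's own row. Rpl26 held 10.9 to 12.5% of its family's TPM in BALB/c libraries and 97.7 to 99.1% in the 30 others, but the family sum was 1096 ± 15.8 TPM (SD, n = 3) in BALB/c G and 1050 ± 270.1 in APCmin/+ G. For Rpl35a the gene held a median of 14.2% against 95.5%, for Rpl29 23.9 against 98.8%, for Rpl30 33.1 to 37.3% against 92.4 to 96.7%, for Rpl21 41.5 against 94.4%, for Rps2 46.1 against 98.1%, for Rps18 48.7 against 99.3% and for Rplp0 54.9 against 99.2%. In 12 of the 78 families the gene's share was lower in every BALB/c library than in every other library; the other 4 were Rps7, Rps3a1, Rpl3 and Rpl28. These 12 were picked by that share, so it carries no test. All near copies together took 0.842 to 1.37% of TPM in BALB/c spleen and 0.197 to 0.678% elsewhere.

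**Figure D4:**
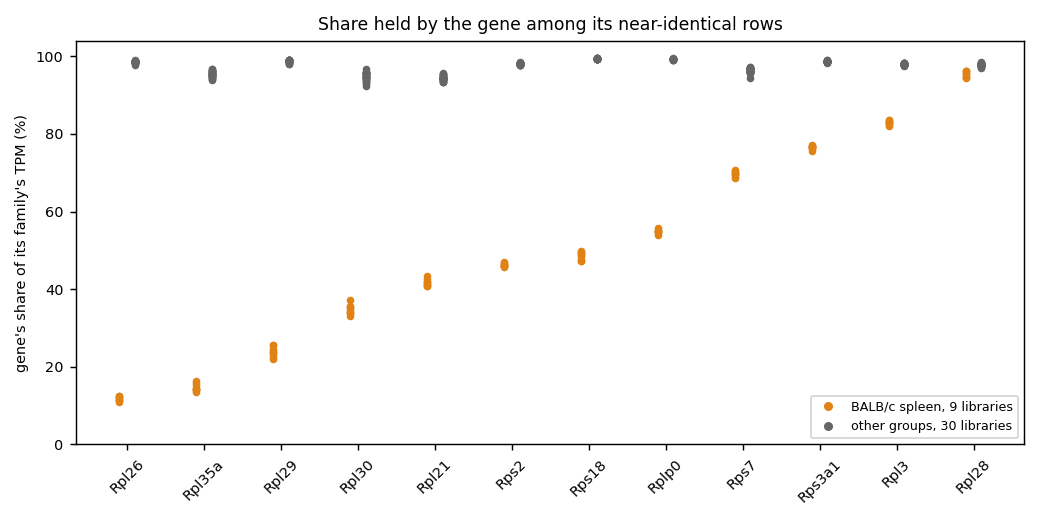
Share of a family's TPM (the gene and its near-identical rows) held by the gene's own row, for the 12 families in which the 9 BALB/c libraries (orange) do not overlap with the 30 others (grey). Rpl26 stands at 10.9 to 12.5% in BALB/c and at 97.7 to 99.1% elsewhere, and Rpl28 differs by 2.3 percentage points between medians.

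With families summed, an alternative chosen after these values were seen, the large differences were gone. The log2 difference of Rpl26 was -0.09 in G (adjusted p = 0.682), -0.25 in M (0.159) and -0.08 in G+M (0.74). That of Rps18 was 0.02, -0.12 and 0.08, and that of Rplp0 0.03, -0.18 and 0.01, none of them called. Of the families, 3 were higher and 3 lower in G, 3 and 4 in M and 3 and 3 in G+M (background 6.84 and 24.6%, 11.4 and 27.6%, 7.33 and 20.1% of 18171 rows). Rpl29 kept its direction (0.49 ± 0.13, 0.40 ± 0.13 and 0.50 ± 0.13). Rpl35a reversed it (-0.47 ± 0.14, -0.72 ± 0.14 and -0.51 ± 0.14), as did Rpl30 (-0.40, -0.54 and -0.46) and Rpl21 (-0.46, -0.41 and -0.43), each with an SE of 0.14 or 0.15.

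**Figure D5:**
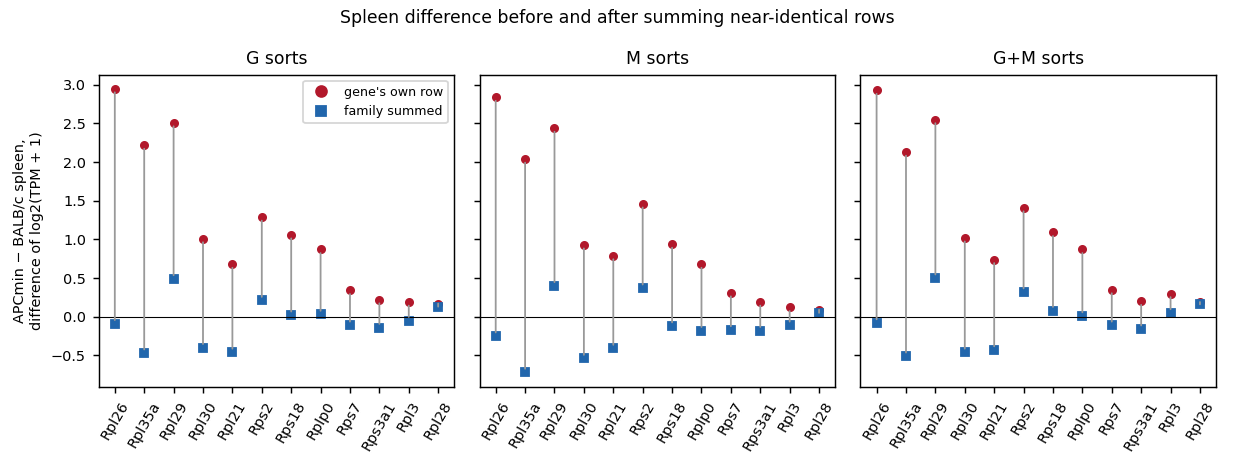
Difference of log2(TPM + 1) between APCmin/+ and BALB/c spleen for the 12 families, from the gene's own row (red circles) and after its near-identical rows were added (blue squares). Rpl26 goes from 2.95 to -0.09 in the G sorts, and Rpl35a from 2.22 to -0.47.

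Apart from these families, few members were called between the spleens without rescaling. Rps4l was higher in APCmin/+ M at 10.4, 7.70 and 10.6 TPM against 5.59, 4.16 and 2.95 (1.03 ± 0.22, adjusted p = 0.000476). Rps27l was higher in M (0.39 ± 0.14, adjusted p = 0.0318) and G+M (0.50 ± 0.14, adjusted p = 0.0104), and Rpl10 was lower in M (-0.39 ± 0.14, adjusted p = 0.0259). Rpl13a (0.44 ± 0.16, adjusted p = 0.0398) and Rps14 (0.43 ± 0.16, adjusted p = 0.0418) were higher in G with overlapping libraries, and Rpl3l was higher in G+M (0.45 ± 0.15). Of the 9 Diamond-Blackfan genes, Rpl35a alone was called in each sort, and its family sum had the opposite sign. After rescaling, which moved all differences up by 0.21 in G, 0.18 in M and 0.13 in G+M, 46, 26 and 22 members were higher (12.6, 15.8 and 10.8% of all genes) and 1 was lower in each (14.9, 18.7 and 15.7%). Erythroid markers were higher in APCmin/+ for 5 of 10 in G, 7 in M and 8 in G+M, and cell cycle genes for 10, 15 and 14 of 15, and their part was not tested.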

How the data were processed

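The authors' deposited table held TPM values per gene, made from the reads with RSEM after STAR 2.6.1c alignment to mm10 and bcl2fastq 2.18, per the submitters' processing notes. Which RSEM version and gene models they used is not given in the sources used here. TPM carries no depth, so the depth behind each value is unknown. The table had 53465 rows, of which 53274 IDs matched GENCODE M21, and 26 symbols stored as dates were restored. Columns were tied to samples by name.

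Differences were tested with limma 3.58.1 (R 4.3.3; limma-trend) on log2(TPM + 1), which understates changes of low genes, in 1 fit of all 39 libraries with a mean for each of the 13 groups. Genes with at least 1 TPM in at least 3 libraries (18466) were tested, p-values were adjusted by the Benjamini-Hochberg method over all of them, and a call needed an adjusted p under 0.05. All 86 members passed this filter. The labels do not say that the libraries of a group came from separate animals, so p-values measure only the spread between these samples. Tables and near-copy alignments used Python 3.11.15, pandas 2.3.3, numpy 2.4.6 and blastn 2.17.0, and the fit was tested on simulated data.

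Named members were those with the largest called differences (up to 4 in each direction per comparison), the 6 of highest mean, those beside the threshold, the paralogs with their partners, the stalk genes and a panel of well known genes. Single values of some of these are not reported here. Members and lists were chosen with earlier results of these data known. Same-numbered libraries deviated together in APCmin/+ spleen G and M (r = 0.555, 0.375 and 0.404), intestinal G and M (0.599, 0.432 and 0.562) and intestinal G+M and all cells (0.643, 0.59 and 0.628), so in these the number was taken as pairing, from the data alone. Alternatives were another pseudocount, no filter, a fold minimum, rescaling by median ratios, differences relative to the members' median, pseudogene rows added, compared groups alone, the replicate block, each library left out and, chosen after seeing the data, near copies summed.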

Additional observations from a re-analysis of the deposited data

Results flagged for a closer look

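The contrast of G with M differed between intestine and spleen of APCmin/+ mice by a limma interaction test at an adjusted p under 0.05. Of the 86 ribosomal protein genes, 71 were higher in G relative to M in intestine than in spleen, and 1, Rpl3l, was lower. The background was 19.9% of genes higher and 5.45% lower. The count did not hold under every setting: it was 57 with G and M paired within each tissue by a block, 14 after rescaling, 22 without intestinal M library 1 and 0 with the 4 groups fitted alone. The granulocyte markers of these sorts lay between 36.7 and 778 TPM in intestine and between 26310 and 140100 TPM in spleen, and their part in the difference was not tested.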

How the results depend on the processing

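All counts here are of ribosomal protein genes called by limma. Shares of all genes are given here or above for rescaling, compared groups alone, the replicate block and near copies summed. For the other settings they are not reported here, so those counts are not set against a background. A fold minimum of 1 on the log2 scale left 1 (marrow G against M), 0 (G against M in either spleen), 4, 11 and 4 (intestine against spleen in G, M and G+M), 7, 6 and 7 (APCmin/+ against BALB/c spleen in the same order), 31 (marrow M against all cells) and 1 (interaction of tissue and sort). Rescaling by the median ratio gave 24 for marrow G against M, 22 for APCmin/+ spleen G against M, 33 for intestine against spleen M, 47, 27 and 23 between the spleens and 14 for the interaction. No filter gave 22 for APCmin/+ spleen G against M. Relative to the members' median the counts were 11 for marrow G against M, 18 and 7 for BALB/c and APCmin/+ spleen G against M, 47 and 34 for intestine against spleen in G and M, 29, 42 and 31 between the spleens, 49 and 40 for marrow G and M against all cells and 4 for the interaction. By construction that setting takes the members' common shift away, and the median difference changed sign for APCmin/+ spleen G against M (0.01), intestine against spleen M (0.05) and the interaction (-0.05). With the compared groups fitted alone, fewer samples gave the spread, and the counts were 13 for marrow G against M, 0 for APCmin/+ spleen G against M, 5 for intestine against spleen G and 0 for the interaction. With near copies summed, chosen after seeing the data, 6, 7 and 6 were called between the spleens. Where not stated, the cause was not tested.

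With the replicate number as a block in fits of the compared groups, the count for marrow G against M was 50 (49 lower, against 19.4% of all genes). It was 0 for APCmin/+ spleen G against M and 1 for intestine G against M (higher, against 0.590%). For intestine against spleen it was 4, 47 and 20 in G, M and G+M (2, 45 and 18 lower, the others higher). Of all genes 30.1, 38.9 and 33.0% were lower there and 23.4, 18.8 and 26.5% higher. Between the spleens it was 4, 4 and 5 (3, 3 and 4 higher, the others lower). Of all genes 0.904, 0.455 and 0.764% were higher there and 2.81, 1.25 and 1.72% lower. Outside the pairings given with the methods, the samples share only a number.

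Leaving out each library in turn gave 1 to 10 for marrow G against M, 34 to 62 for BALB/c and 5 to 80 for APCmin/+ spleen G against M, and 0 to 6 for intestine G against M. It gave 18 to 42, 76 to 84 and 26 to 51 for intestine against spleen in G, M and G+M, 9 to 15, 10 to 14 and 10 to 12 between the spleens, and 22 to 81 for the interaction. Marrow G and M against all cells stayed at 84 and 82. Over all settings, 173 of the alternative values for counts of calls were within 1.5 times the reported count and 64 were not. The unknown depth limits what can be said of Rpl3l, Rpl32l and Rps3a3, which stand near 1 TPM.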

Other observations

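Mitochondrial ribosomal protein genes, which encode the proteins of the separate ribosome inside mitochondria, and other lists of the protein synthesis machinery were counted in the same fit. In the interaction of tissue and sort 68 of 78 were higher and 0 lower, with a median log2 difference of 0.73. Of the other lists, 16 of 18 TOP mRNA genes, 21 of 24 initiation factors, 25 of 46 ribosome biogenesis genes and 15 of 15 cell cycle genes were higher and none lower there, where 19.9% of all genes were higher. In BALB/c spleen G against M, 28 mitochondrial ribosomal protein genes, 14 TOP mRNA genes and 10 initiation factors were lower, with medians of -0.32, -0.54 and -0.34, and none was higher. Of all genes 13.3% were lower. In intestine G against M, 2 of the 78 mitochondrial genes were higher, and no gene of the other 4 lists was called by limma.

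Regulators of growth and translation, 16 genes such as those of the mTOR pathway, were lower for 14 and higher for 1 in intestinal against splenic M, where 50.7% of all genes were lower and 22.0% higher. Between marrow G and all marrow cells 5 were higher and 5 lower, with a median of 0.00, near the shares of all genes (22.7% higher and 28.0% lower).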
